A study of Homo sapiens with 4 samples.

Results

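The MTA1 peaks of chromosomes 16 and 17 were taken from 2 deposited peak lists of HCT116 cells and counted by chromosome arm and by 5 Mb bin. Membership followed position alone: a peak belonged to 16q where its midpoint lay above 46.4 Mb and to 17q where it lay above 26.9 Mb, and the short arms ended at the last gene before the centromere. In list 1, 3978 of 32042 peaks (12.4%) lay on the pair of chromosomes, and in list 2, 2581 of 31079 (8.30%), which gave 6559 of 63121 peaks (10.4%) in all. Each list set 1 MTA1 chromatin immunoprecipitation (ChIP) library against the input library of the same number, so the 4 libraries (2 ChIP, 2 input) yielded 2 lists, and list 1 and list 2 are called by that number. All libraries came from formaldehyde-fixed HCT116, an established epithelial line of human colorectal carcinoma, and the labels give no treatment or genotype that separates them. Whether the replicates were separate cultures is not in the labels, so the difference between the lists measures only the difference between these library pairs. Sequencing depth is unknown because the lists carry positions and scores only, and each interval of a density or share covers counting error only.

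MTA1 is a subunit of NuRD, a complex that couples nucleosome remodelling by a CHD ATPase to histone deacetylation. NuRD occupies both active promoters and enhancers in many cell types and reaches DNA through the transcription factors and CpG-binding proteins that it contacts. Peak callers score enrichment over input, and gene-rich, GC-rich chromatin usually carries more called peaks of such factors. HCT116 is reported to carry gains of 16q and 17q. Copy number was not analysed here, and its part in the densities below was not tested.

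The promoters shown here were those of the best-ranked gene on each arm with a peak of both lists over its start, because they are the clearest places where the lists met. They are RefSeq sequences of build GRCh38.p14 in lower case, 5′ to 3′ along the gene, from 250 bases before to 50 after the annotated start. FBXL19, a CpG-binding F-box protein, was the best on 16p (chr16:30922601-30922900, plus strand). ACSF3, a mitochondrial malonyl-CoA synthetase, was the best on 16q (chr16:89093602-89093901, plus strand). TMEM11, an inner mitochondrial membrane protein, was the best on 17p (chr17:21214112-21214411, minus strand). LRRC3C, a leucine-rich repeat protein, was the best on 17q (chr17:39927482-39927781, plus strand). Capitals mark matches on either strand to the GC box core GGGCGG, the core CCGGAA of ETS sites, the CCAAT box, the E-box CACGTG or the AP-1 motif TGACTCA, and no match in the printed windows overlapped another.
FBXL19: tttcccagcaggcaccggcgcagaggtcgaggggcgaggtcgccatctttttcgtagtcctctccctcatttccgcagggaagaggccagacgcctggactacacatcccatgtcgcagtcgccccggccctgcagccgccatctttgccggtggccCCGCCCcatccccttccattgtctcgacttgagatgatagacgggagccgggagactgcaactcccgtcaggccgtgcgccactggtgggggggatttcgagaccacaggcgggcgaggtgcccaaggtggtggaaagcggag
ACSF3: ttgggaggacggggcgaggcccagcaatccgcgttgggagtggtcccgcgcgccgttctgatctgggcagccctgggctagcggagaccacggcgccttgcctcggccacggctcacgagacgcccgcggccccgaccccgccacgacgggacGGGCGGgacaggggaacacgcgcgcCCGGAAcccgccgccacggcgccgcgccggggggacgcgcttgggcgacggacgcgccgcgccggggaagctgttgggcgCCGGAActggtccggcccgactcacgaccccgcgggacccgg
TMEM11: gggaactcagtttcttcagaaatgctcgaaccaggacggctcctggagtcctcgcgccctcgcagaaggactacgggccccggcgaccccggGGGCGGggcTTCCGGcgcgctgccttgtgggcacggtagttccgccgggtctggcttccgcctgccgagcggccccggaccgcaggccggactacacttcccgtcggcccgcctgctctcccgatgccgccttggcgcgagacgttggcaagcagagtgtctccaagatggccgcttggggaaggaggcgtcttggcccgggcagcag
LRRC3C: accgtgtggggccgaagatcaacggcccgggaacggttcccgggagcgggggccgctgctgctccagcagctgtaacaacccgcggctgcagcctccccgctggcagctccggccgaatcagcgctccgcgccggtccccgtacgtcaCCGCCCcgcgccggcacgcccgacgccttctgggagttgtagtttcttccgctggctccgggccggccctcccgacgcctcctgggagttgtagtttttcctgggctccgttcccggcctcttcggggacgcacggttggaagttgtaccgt

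These windows lay above the median promoter window in GC content, FBXL19 by little and ACSF3 by most. The FBXL19 window had a GC content of 65.0% with 24 CpG dinucleotides, and ACSF3 had 78.0% with 51. TMEM11 and LRRC3C both had 70%, with 33 and 37 CpG dinucleotides. The median over 21156 promoter windows of 15101 autosomal coding genes in the table was 62.7% GC and 21 CpG dinucleotides. Each printed window held 1 match to GGGCGG, and ACSF3 held 2 and TMEM11 1 to CCGGAA. None of them held a match to the other motifs. Over all 21156 windows, GGGCGG was present in 56.6%, CCGGAA in 21.3%, CCAAT in 34.4%, CACGTG in 8.25% and TGACTCA in 3.98%, so a match to GGGCGG was the usual case.

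Promoters on chromosomes 16 and 17 were covered more often than elsewhere in list 1 and about as often in list 2. The table held windows for 1435 of 2002 coding genes on the pair and for 13666 of 16971 on the other autosomes. List 1 peaks overlapped 450 of 1964 windows (22.9%) on chromosomes 16 and 17 against 16.3% on the other autosomes, and list 2 peaks overlapped 59 (3.0%) against 2.9%. Windows on the pair with a list 1 peak had a median GC content of 68.0%, and those without had 63.7%. Windows with a list 2 peak had a median of 70.7%, and the 38 windows with a peak of both lists had 71.7%. The matching medians on the other autosomes were close: 67% with a list 1 peak, 72.0% with a list 2 peak and 71.3% with both.

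All 4 arms stood above the other autosomes in list 1, with the long arms highest. List 1 held 698 peaks on 16p, 1106 on 16q, 482 on 17p and 1692 on 17q. Over arm spans of 36.1, 43.8, 22.6 and 56.3 Mb, that made 19.3 peaks per Mb on 16p (95% exact Poisson interval 17.9 to 20.8), 25.2 on 16q (23.8 to 26.8), 21.3 on 17p (19.4 to 23.3) and 30.0 on 17q (28.6 to 31.5). The other autosomes averaged 10.9 peaks per Mb in list 1. Relative to them, list 1 density was 1.78 times as high on 16p, 2.33 on 16q, 1.96 on 17p and 2.77 on 17q. Among the 39 autosomal arms of at least 10 Mb, 17q ranked 3 and 16q ranked 5 in list 1, behind such gene-dense arms as 19p.

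List 2 gave a different order, in which 17q alone of the 4 stood far above the rest. It held 432 peaks on 16p, 573 on 16q, 343 on 17p and 1215 on 17q. Densities were 12, 13.1, 15.1 and 21.6 peaks per Mb in that order, against 10.9 over the other autosomes. Relative to the other autosomes, list 2 density was 1.09 times as high on 16p, 1.19 on 16q, 1.38 on 17p and 1.97 on 17q. The 17q arm ranked 2 of 39 in list 2 (interval 20.4 to 22.8 per Mb), and 16q ranked 9. The long arm was denser than the short arm of the same chromosome in both lists, by 1.30 times in list 1 and 1.09 in list 2 on chromosome 16, and by 1.41 and 1.42 on chromosome 17. Among 17 autosomes with both arms, those ratios ranked 6 and 7 for chromosome 16 and 4 and 3 for chromosome 17.

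Of the 4 arms, the lists met most often on 17q in number and per Mb, but not clearly as a share of peaks. A shared region, where a list 1 peak and a list 2 peak overlapped by 1 bp or more, was found 26 times on 16p, 27 on 16q, 21 on 17p and 74 on 17q. The 17q density of 1.31 shared regions per Mb (1.03 to 1.65) ranked 2 of 39 arms, behind 19p (1.53), and was 3.50 times the 0.375 of the other autosomes. Peak densities on 17q were themselves 2.77 and 1.97 times those of the other autosomes, and the overlap that such densities give by position alone was not computed. Shared regions on 17q numbered 4.37% of the count of list 1 peaks and 6.09% of that of list 2 peaks, beside 3.46% and 3.43% on the other autosomes. Other arms had higher shares, such as 11p for list 1 (5.43%) and 19p for list 2 (6.65%). On 16q shared regions numbered 2.44% of the list 1 count and 4.71% of the list 2 count. The shares were 4.36% and 6.12% on 17p, close to those of 17q, and 3.72% and 6.02% on 16p. Of the shared regions, 13 on 16p, 7 on 16q, 5 on 17p and 22 on 17q had their midpoint within 1000 bp of an end of a coding gene.

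**Figure D1:**
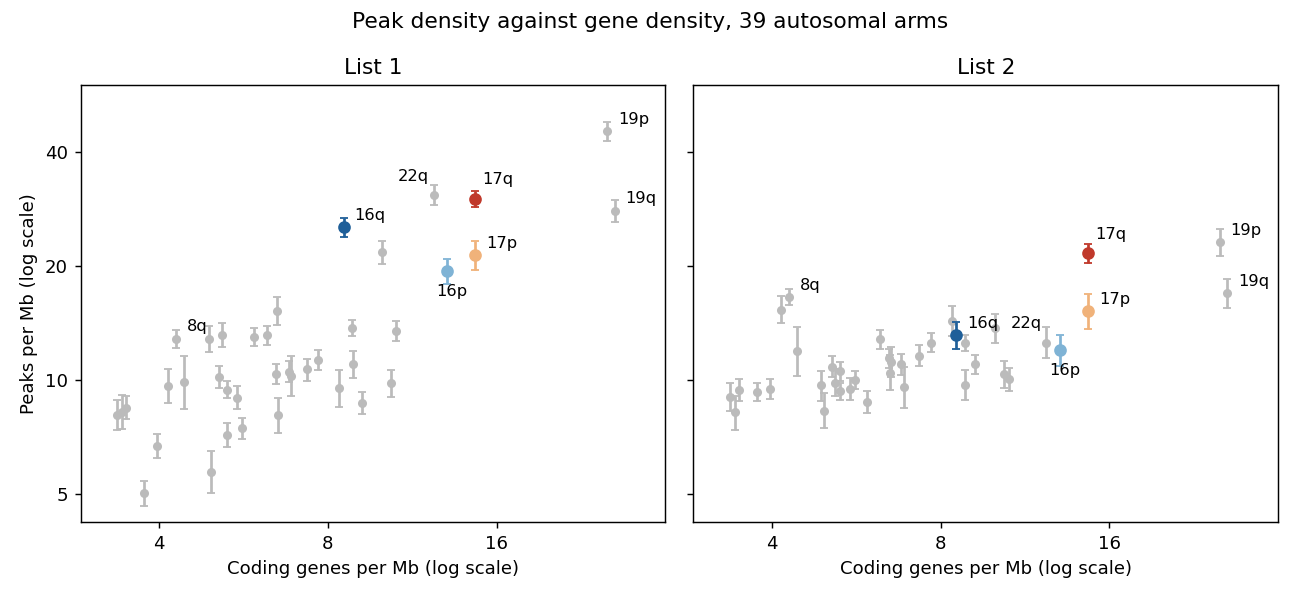
Peaks per Mb (vertical axis, log scale) against coding genes per Mb (horizontal axis, log scale) for 39 autosomal arms in list 1 (left) and list 2 (right), with 95% exact Poisson intervals as bars and the arms of chromosomes 16 and 17 in colour. In list 1, 16q at 25.2 peaks per Mb lies above arms of like gene density, and in list 2, 17q at 21.6 does.

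These arms are rich in genes, which is why density was also compared at a given gene density. Coding genes numbered 471 on 16p, 374 on 16q, 332 on 17p and 825 on 17q, or 13.1, 8.53, 14.7 and 14.6 per Mb. Their gene densities ranked 5, 13, 3 and 4 of 39 arms. Across the 39 arms, log2 peak density and log2 gene density had a Pearson correlation of 0.80 in list 1 and 0.67 in list 2, where arms of 1 list share a library. The short arms lay close to the line fitted to the other arms, and the long arms lay above it without passing the test. On the mean of both lists, the log2 difference between observed and fitted density was -0.12 ± 0.31 (SE) on 16p and 0.03 ± 0.32 on 17p. It was 0.49 ± 0.30 on 16q, or 1.40-fold (95% interval 0.925 to 2.13), and 0.58 ± 0.30 on 17q, or 1.5-fold (0.980 to 2.29). With deleted residuals and Benjamini-Hochberg adjustment over 39 arms, the adjusted p was 0.558 for each long arm, 0.888 for 16p and 0.946 for 17p. The test called 0 of 39 arms (0%), and at an unadjusted p under 0.05 it counted 1, which was 8q.

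Of the 4 arms, the lists differed most on 16q. In list 1, 16q had the highest value of all 39 arms, 0.88 ± 0.42 on the log2 scale or 1.84-fold (1.02 to 3.32), with an unadjusted p of 0.043 and an adjusted p of 0.750 from the deleted residual. In list 2, 16q was at 0.10 ± 0.27, or 1.07-fold (0.733 to 1.57). The 17q arm was at 0.54 ± 0.45 in list 1 (1.46-fold) and at 0.62 ± 0.26 in list 2 (1.54-fold, 1.07 to 2.21), where it ranked 3 of 39 behind 8q (0.79) and 10p (0.69), with deleted-residual adjusted p values of 0.750 and 0.280. The log2 ratio of list 1 to list 2 on 16q was 0.78 ± 0.38 above the fit (adjusted p 0.619 by the same test), so the lists' difference on 16q did not pass either. Outside the 4 arms, 22q at 0.91 and 12p at -0.80 lay further from that fit than 16q. An alternative that changed the unit and the model together changed the call: a quasi-Poisson fit over 5 Mb bins, with both lists averaged, gave adjusted p values of 0.00582 for 16q and 1.95e-05 for 17q and called 5 of 39 arms. Neighbouring bins of an arm are not independent, and in that fit list 2 alone gave 0.671 for 16q. In simulated arms with the observed scatter, a planted 2-fold excess was called in 35 of 100 draws and a 4-fold excess in 100 of 100, so excesses of the size seen here could be missed.

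Within the arms, the excess of the lists lay in different places. Observed peaks in each bin were divided by the number fitted from its coding genes over 544 autosomal bins, 33 of them on chromosomes 16 and 17. A bin was called where that ratio was at least 1.5 in both lists. That held for 3 of the 33 bins, against 1.84% of all autosomal bins. They were the bin at 20 to 25 Mb of 17p (ratios 2.24 in list 1 and 1.56 in list 2), that at 50 to 55 Mb of 17q (1.74 in each list) and that at 65 to 70 Mb of 17q (1.72 and 2.84). The first of them touches the gene-free interval at the centromere and held 31 peaks of list 1 and 38 of list 2 over 2.71 Mb. In list 1 alone, 11 of the 33 bins reached 1.5, against 14.2% of all bins, and in list 2 alone 7 did, against 8.09%. On 16q, 4 of 9 bins reached 1.5 in list 1 and 0 in list 2.

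List 1 was dense at the far ends of the long arms. The bin at 85 to 90 Mb of 16q held 523 list 1 peaks, 104.6 per Mb, which was 5.22 times the fitted number and ranked 3 of 544 bins. List 2 held 68 peaks there, 13.6 per Mb, at a ratio of 0.95. On 17q, the bin at 75 to 80 Mb held 402 list 1 peaks (ratio 3.10), and the last one, from 80 Mb, held 371 in 3.24 Mb, or 114 per Mb (ratio 4.95, rank 6). List 2 held 91 and 67 peaks in that pair of bins, at ratios of 1.17 and 1.38. The list 1 excess at the ends of both long arms was therefore not found at that size in list 2.

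List 2 was dense in the middle of 17q. It held 154 peaks at 55 to 60 Mb, 194 at 60 to 65 Mb and 162 at 65 to 70 Mb, at ratios of 2.32, 2.92 and 2.84, which ranked 6, 2 and 3 of 544 bins. List 1 held 89, 107 and 89 peaks in the same bins, at ratios of 1.09, 1.31 and 1.72. The single densest Mb of list 2 on the pair of chromosomes was 59 to 60 Mb of 17q, with 69 peaks of list 2 and 14 of list 1. The single densest Mb of list 1 was 81 to 82 Mb of 17q, with 152 peaks of list 1 and 14 of list 2.

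Some gene-dense bins were poor in peaks. The bin at 35 to 40 Mb of 17q, which holds ERBB2, the receptor tyrosine kinase gene amplified in some carcinomas, had 102 coding genes but 35 peaks of list 1 and 51 of list 2. Its ratios were 0.24 and 0.63, and its list 1 ratio ranked 531 of 544. The stretch from 36 to 38 Mb, with 30 of these genes, held no peak of either list, and without it the ratios were 0.36 and 1.01. The next bin, at 40 to 45 Mb, had 182 genes and ratios of 0.53 and 0.89. On 16p, the bin at 15 to 20 Mb was low in both lists, with ratios of 0.44 and 0.41. Its first 2 Mb, with 16 of 36 genes, held no peak of either list, and without them the ratios were 0.79 and 0.70. Such blank Mb numbered 6 of 155 within the spans of chromosomes 16 and 17, and 47 of 2516 on the other autosomes. Blank Mb with at least 5 coding genes numbered 5 of 155 and 11 of 2516. Removing the blank Mb from the low bins was tried after the bins were seen. The most gene-dense bin of 16p, its first 5 Mb, held 368 list 1 peaks and 67 list 2 peaks, at ratios of 1.59 and 0.71.

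**Figure D2:**
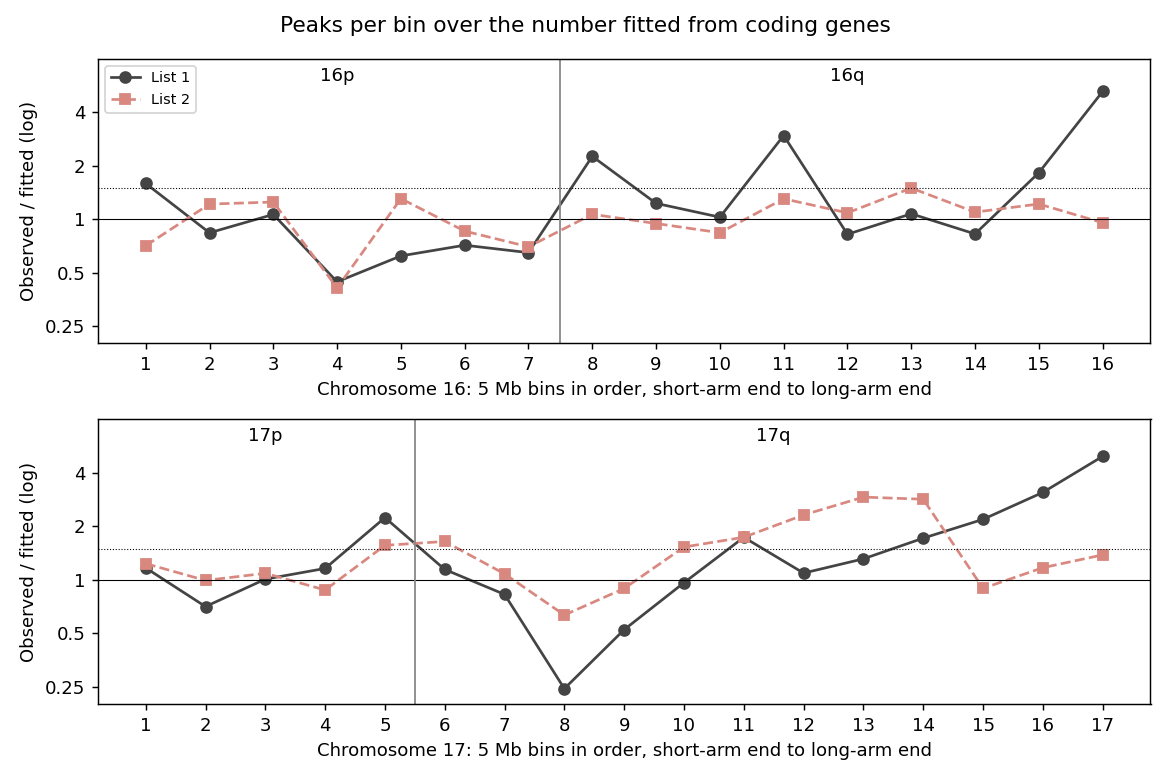
Peaks per 5 Mb bin divided by the number fitted from coding genes (vertical axis, log scale) for the 33 bins of chromosomes 16 (top) and 17 (bottom), in order from the short-arm end, with list 1 as circles and list 2 as squares; the solid line is a ratio of 1, the dotted line 1.5 and the vertical line the centromere. List 1 climbs to 5.22 and 4.95 in the last bins of 16q and 17q, while list 2 peaks at 2.92 in the middle of 17q.

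Gene density followed list 1 better than list 2 over these bins. Across the 33 bins, genes per Mb and peaks per Mb had a Pearson correlation of 0.49 (Spearman 0.67) in list 1 and 0.10 (0.31) in list 2. On 17q alone, with 12 bins, the Pearson values were 0.34 and -0.32. They were 0.97 and 0.15 on 16p (7 bins) and 0.84 and 0.76 on 17p (5 bins). On 16q (9 bins) list 2 had the higher of the Pearson values, 0.45 and 0.67. Across all 544 bins they were 0.62 and 0.47. The ratios of list 1 and list 2 to their own fits had a Pearson correlation of 0.11 over the 33 bins (Spearman 0.39). Bins of 1 list share a library and neighbouring bins are not independent, so these values describe the lists.

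Because the long-arm ends led list 1, the last 5 Mb at the telomere side were compared across all 39 arms, a choice made after the bins were seen. In list 1, the end of 17q had 110.4 peaks per Mb and that of 16q 100.6, the highest and next highest of 39. The other 35 arms outside chromosomes 16 and 17 ranged from 4.2 to 95, with a median of 26.4. The end of 16p had 73.6 (rank 6) and that of 17p 33.4 (rank 20). Dense ends were a property of list 1 on many arms: the last 5 Mb were denser than the remainder of the arm by a median of 2.75 times on the other 35 arms, beside 6.48 on 16q and 4.97 on 17q, which ranked 8 and 13 of 39. The ratio was highest on 8q (11.3), and 16p had 6.93. In list 2 the same ratio had a median of 0.889 on the other arms, and was 1.05 on 16q and 0.812 on 17q. Of all list 1 peaks of 16q, 45.5% lay in its last 5 Mb, which are 11.4% of its span, and in list 2 11.9% did.

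Leaving out the last 5 Mb of every arm lowered 16q more than 17q. In list 1, 16q went from 0.88 to 0.46 ± 0.34 above the gene fit on the log2 scale (1.37-fold, 0.848 to 2.22) and from rank 1 to rank 5. The 17q arm went from 0.54 to 0.34 ± 0.36 in list 1 and from 0.62 to 0.63 ± 0.27 in list 2. In list 1, 16q without its end stood at 15.5 peaks per Mb and 17q at 22.2.

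**Figure D3:**
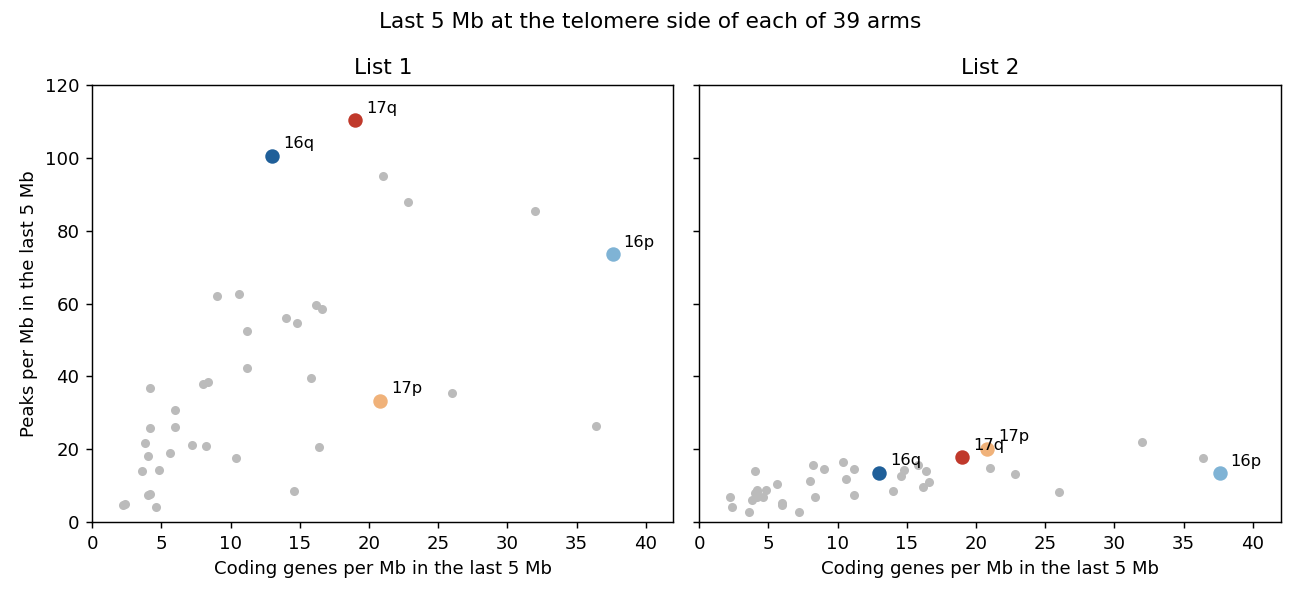
Peaks per Mb in the last 5 Mb at the telomere side of each of 39 arms (vertical axis) against coding genes per Mb in the same 5 Mb (horizontal axis), for list 1 (left) and list 2 (right). In list 1, 17q at 110.4 and 16q at 100.6 are the highest, and in list 2 they lie at 17.8 and 13.6.

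Stretches of 17q, with borders set after the bins were seen, sum up this arm. From 26.9 to 45 Mb the lists were close, with 14.9 peaks per Mb in list 1 (13.2 to 16.8) and 15 in list 2 (13.2 to 16.9). From 45 to 70 Mb, list 1 had 20.3 (18.6 to 22.2) and list 2 29.2 (27.2 to 31.4). From 70 Mb to the end, list 1 had 69.0 (64.6 to 73.7) and list 2 16.1 (14 to 18.4). Shared regions were 0.442 per Mb in the first stretch, 1.28 in the second and 2.57 in the third, where list 1 was densest. The overlap that the peak densities and widths of each stretch give by position alone was not computed, so these values do not measure agreement of the lists. On 16q, the part up to 80 Mb had 13.8 peaks per Mb in list 1 and 12.8 in list 2, and the part beyond it had 62.8 and 14.1.

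Peaks of list 1 were wider on the long arms than on any other arm. Their median width was 1022 bp on 17q and 981.5 bp on 16q, which ranked 1 and 2 of 39, beside 826 bp on 16p, 761 bp on 17p and 692 bp on the other autosomes. Peaks over 1500 bp made up 23.5% of list 1 on 16q (260 peaks) and 23.7% on 17q (401 peaks), against 4.91% on the other autosomes. On 16p they made up 7.45% and on 17p 6.02%. The arm next to them was 8q with 19.6%. The wide peaks lay towards the arm ends: they were 36.1% of list 1 peaks on 16q beyond 80 Mb and 6.03% before it. On 17q they were 3.33% in the stretch to 45 Mb, 18.3% in that from 45 to 70 Mb and 32.7% beyond 70 Mb. This was not particular to these arms: in the last 5 Mb, wide peaks made up 43.2% of list 1 on 8q, 41.0% on 16q and 33.9% on 17q. Counting covered length in place of peaks, list 1 covered 29.3 kb per Mb on 16q and 35.7 on 17q, against 8.45 on the other autosomes.

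The median width of 17q ranked highest in both lists. The median score, a value per peak from the authors' peak caller whose scale is not stated, was 67.8 for list 1 on 17q and 67.3 on 16q, ranks 1 and 2 of 39, against 63.6 on the other autosomes. In list 2, 17q had the largest median width of the 39 arms, 496 bp against 446 bp on the other autosomes. The part of depth, background or input coverage in these widths was not tested.

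**Figure D4:**
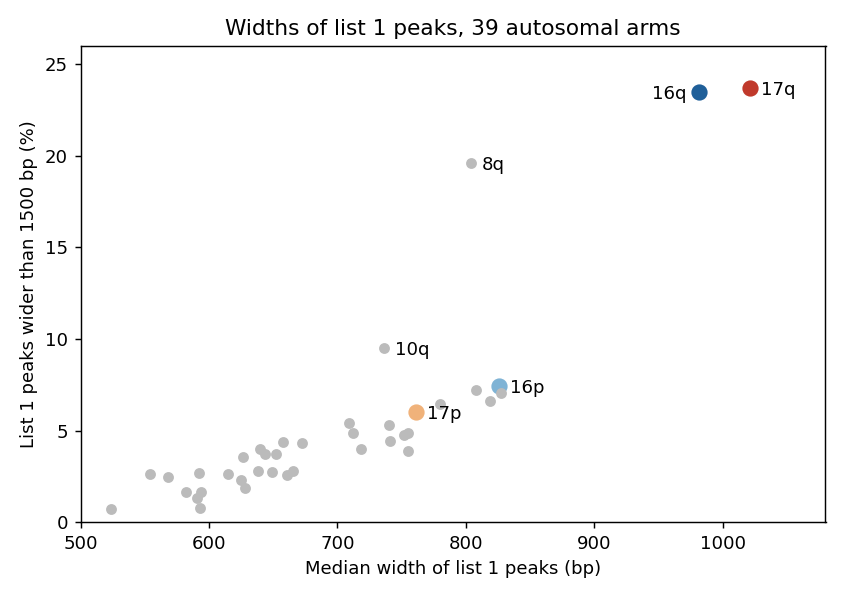
Share of list 1 peaks wider than 1500 bp (vertical axis, %) against the median width of list 1 peaks (horizontal axis, bp) for 39 autosomal arms, each point 1 arm. The 16q and 17q arms stand apart at 23.5% and 23.7%, with 8q at 19.6% and the other arms under 10%.

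Most peaks had their midpoint inside a coding gene, and fewer had it within 1000 bp of a gene end, where these classes overlap. In list 1, 72.2% of peaks on 16p, 66.5% on 16q, 75.9% on 17p and 68.5% on 17q had their midpoint inside a coding gene, against 59.2% on the other autosomes. In list 2 the shares were 50.2%, 53.9%, 59.8% and 59.6%, against 51.4%. Coding genes numbered 8.53 to 14.7 per Mb on these arms and 6.63 on the other autosomes. The share of each span that lies inside genes was not computed, so these values do not measure a preference for gene bodies. Midpoints within 1000 bp of a gene end made up 21.6% of list 1 peaks on 16p (18.7% to 24.8%, Wilson interval), 12.2% on 16q (10.4% to 14.3%), 18% on 17p and 16% on 17q, against 14.3% on the other autosomes. The 16p share ranked 2 of 39 arms and the 16q share 29, so the dense long arm of chromosome 16 had fewer of its list 1 peaks at gene ends than its short arm. In list 2 the shares were 5.56%, 3.66%, 4.96% and 4.28%, against 3.75%.

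At gene ends with a known strand, list 1 peaks were more often by the 5′ end. On 16p, 82 list 1 peaks were nearest a 5′ end and 41 a 3′ end, on 16q 62 and 36, on 17p 44 and 18, and on 17q 127 and 64. The 5′ share was 66.7% (57.9% to 74.4%), 63.3% (53.4% to 72.1%), 71.0% (58.7% to 80.8%) and 66.5% (59.5% to 72.8%) in that order, and 78.0% (76.5% to 79.4%) on those other autosomes that have strand entries, which held 26196 list 1 peaks. The intervals of 16p, 16q and 17q lay below that interval, and that of 17p overlapped it. They cover counting error within 1 list only, and the difference was not tested over libraries. Strand was known for 1435 of 2002 coding genes on the pair and for 13666 of 16971 on the other autosomes. Ends of the remaining genes were not counted, and the part of this unequal coverage was not tested. In list 2, all 14 such peaks of 16q were nearest a 5′ end, and 24 of the 37 on 17q were.

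More genes of 3 of the 4 arms had a list 1 peak at an end than genes in general, and list 2 showed no such excess. A list 1 peak was within 1000 bp of an end of 165 of 471 coding genes on 16p (35%), 138 of 374 on 16q (36.9%), 90 of 332 on 17p (27.1%) and 268 of 825 on 17q (32.5%), against 25.5% of all autosomal coding genes. A list 2 peak was at an end of 28, 21, 17 and 54 genes, or 5.94%, 5.61%, 5.12% and 6.55%, against 6.58%. A shared region was at an end of 16, 7, 5 and 24 genes, or 3.40%, 1.87%, 1.51% and 2.91%, against 2.1%.

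On 16p, the genes with the best-ranked shared regions at an end were FBXL19, SETD1A, GSPT1, RNF40, ZNF689 and USP31. FBXL19 led, with a list 1 score of 604.83 (rank 5 of that list) and a list 2 score of 197.45, in the promoter printed above. SETD1A, a histone H3K4 methyltransferase close to FBXL19, had scores of 475.79 and 123.95. The termination factor gene GSPT1 had 446.49 and 148.18. RNF40, a subunit of the histone H2B ubiquitin ligase, had 201.91 and 74.92 with the shared region 755.5 bp from its higher end. ZNF689, a zinc finger protein, had 167.03 and 73.42, and USP31, a deubiquitinase, had 259.6 and 69.71. FBXL19, SETD1A, RNF40 and ZNF689 are close neighbours, with gene starts from 30602558 to 30957754.

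On 16q, ACSF3 had ranks of 101 in list 1 (score 284.18) and 95 in list 2 (257.63), the best rank sum of the arm, with its shared region centred 4 bp from the lower end of the gene. ST3GAL2, a sialyltransferase, had 423.74 and 85.25, and RBL2, the p130 pocket protein that represses cell cycle genes, had 160.29 and 92.21. FCSK, the fucose kinase, had 168.96 and 67.7. SDR42E1, a short-chain dehydrogenase, had 99.1 and 70.47, and GPT2, a mitochondrial alanine aminotransferase, had 75.1 (rank 10026) and 52.37 (rank 26552), the latter close to the lowest score of 50. ACSF3 and SDR42E1 lie in the dense part of 16q beyond 80 Mb, and ACSF3 had 15 list 1 peaks and 1 list 2 peak in its body.

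On 17p, 5 genes qualified. TMEM11 had scores of 330.06 and 103.95. PEMT, the enzyme that methylates phosphatidylethanolamine to phosphatidylcholine, had the best list 1 peak of the pair of chromosomes, 684.2 (rank 4), beside 57.67 in list 2 (rank 18951). USP22, the deubiquitinase of the SAGA complex, had 97.89 and 52.37. BHLHA9, a limb transcription factor, had 80.15 and 50.22, and MRM3, a mitochondrial ribosomal RNA methyltransferase, had 64.41 and 52.82.

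On 17q, 1 shared region served a pair of genes. LRRC3C and ORMDL3, a regulator of sphingolipid synthesis, have their facing ends in it, and its scores were 488.02 in list 1 and 169.1 in list 2. DUS1L, a tRNA dihydrouridine synthase, had 216.86 and 202.03, and its list 2 peak was the best of 17q in that list (rank 120). ANKRD40, an ankyrin repeat protein, had 139.63 and 111.66. CHMP6, an ESCRT-III subunit, had 224.64 and 82.48, and TK1, the thymidine kinase of S phase, had 117.03 and 94.69. DUS1L, CHMP6 and TK1 lie in the stretch beyond 70 Mb.

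The best-scoring peaks of list 1 were partly at gene ends, and several of list 2 lay by the centromeres. In list 1, the 3 best peaks of 16p were those of FBXL19, SETD1A and GSPT1. On 16q the best was inside BANP, a nuclear matrix protein that binds CpG-containing motifs, with a score of 518.16, followed by a 5537 bp peak inside ZNF469 (430.54), a gene linked to corneal collagen. On 17q, a peak inside TMEM101 scored 466.18 and a 2843 bp peak inside SEPTIN9, a septin of the cytoskeleton, 425.43. On 17p, the third peak was at SMCR8, a partner of C9orf72, with 218.11. In list 2, the best of 16q was a 3355 bp peak with a score of 545.56, whose midpoint lay 180.5 bp above the 46.4 Mb border and 178410 bp from the nearest coding gene end, that of SHCBP1. The best 3 of 17p lay 264776 to 275862 bp from a coding gene end, at scores of 519.11, 272.18 and 187.65, with KCNJ18, a potassium channel gene, the nearest. On 16p, a pair of peaks starting at 34582096 and 34587903 had 449.12 and 442.02. SLC7A6OS on 16q (148.18) and NPEPPS on 17q (183.0) were the nearest genes of other leading list 2 peaks. The list 2 peak next below the 46.4 Mb border scored 51.57, and those on either side of the 26.9 Mb border scored 423.26 below and 59.56 above it. In list 1, the closest peaks above the borders scored 56.92 and 58.29, and the closest below them scored 105.4 and 54.87.

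Single genes, most of them long, held many of the list 1 peaks at the long-arm ends. A peak was counted here where any part of it overlapped the gene. RBFOX3, the neuronal splicing regulator known as NeuN, held 71 list 1 peaks in 576 kb and 1 list 2 peak. GSE1, a coiled-coil protein found with CoREST-type deacetylase complexes, held 68 in 507 kb and 2 in list 2. ZFPM1, the GATA cofactor FOG1 that is known to bind NuRD, held 26 in 85.3 kb and 1 in list 2, or 30.5 per 100 kb against 1.17. ZNF469 held 29 and 2, RPTOR, the mTORC1 scaffold, 33 and 4, and SEPTIN9 28 and 1. All of them lie in the ends where list 1 was dense, so their counts are to be read against gene length and local density. List 1 had 12.3 peaks per 100 kb in RBFOX3 and 12.8 in SEPTIN9, in a bin with 80.4 per Mb. RPTOR had 7.83 per 100 kb, in a bin with 114 per Mb. GSE1 had 13.4 and ZNF469 8.53 per 100 kb, in the same bin as ZFPM1, with 104.6 per Mb. Whether these genes differ from their surroundings was not tested.

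The genes with the most list 2 peaks lay elsewhere. BCAS3, a cytoskeletal protein gene in the middle of 17q, held 34 list 2 peaks and 15 list 1 peaks. That was 4.76 list 2 peaks per 100 kb, in a bin with 38.8 per Mb. PPM1E, a protein phosphatase, held 19 and 2, and SKAP1, a T cell adaptor, 18 and 2. On chromosome 16 the leaders were long genes: RBFOX1 held 25 list 2 and 9 list 1 peaks over 2474 kb, ZFHX3 21 and 13, CDH13 15 and 8, and WWOX 15 and 4. On the short arms, list 1 led in CACNA1H, a T-type calcium channel (16 and 3 in list 2), LMF1 (16 and 3) and RAP1GAP2 (18 and 6). List 2 led in SPECC1 (10 against 3 in list 1), SMG6, a nonsense-mediated decay endonuclease (9 against 4), and DNAH3, an axonemal dynein (8 against 3).

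Some cancer genes of each arm had a list 1 peak at an end, in shares to be read against those of all genes of the arm given above. On 16p, 4 of 10 had one, among them TSC2, an mTORC1 inhibitor, at 236.66, TRAF7 at 64.74 and AXIN1, a Wnt pathway scaffold, at 61.15. On 16q, 2 of 11 had one, FANCA of the Fanconi DNA repair pathway at 98.52 and CBFA2T3, a corepressor, at 93.32. On 17p, 2 of 10 had one, among them USP6 at 88.62. On 17q, 10 of 28 did, among them BIRC5, the apoptosis inhibitor survivin, at 170.56, RAD51C, a recombination protein, at 108.75, the splicing factor SRSF2 at 108.08 and COL1A1 at 106.29. In list 2, 0 of 10, 0 of 11, 1 of 10 and 3 of 28 had a peak at an end. The 1 on 17p was CHD3 (52.47), itself a NuRD ATPase. Shared regions were at an end of 2 of 28 on 17q, BIRC5 and STAT5B, and of 0 in the other sets. CTCF, CDH1 and CDK12 had no peak at an end in either list but 3 list 2 peaks each in the gene body, and NF1 and BRIP1 had 9 each. These counts are to be read against gene length and local density. CTCF, CDH1 and CDK12 span 76.7, 98.2 and 106 kb, in Mb with 23, 22 and 21 list 2 peaks. NF1 spans 283 kb in an Mb with 30 list 2 peaks, and BRIP1 184 kb in an Mb with 41.

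The gene clusters are to be read against all coding genes of the arm, of which 32.5% had a list 1 peak at an end and 6.55% a list 2 peak on 17q, and 36.9% and 5.61% on 16q. Of 10 HOXB genes, which pattern the body axis, 6 had a list 1 peak at an end and 0 a list 2 peak, with scores from 57.76 at HOXB6 to 103.24 at HOXB5 and 80.17 at HOXB8. Of 8 cadherin genes of 16q, 4 had a list 1 peak, CDH8 (210.17), CDH15 (185.79), CDH13 (73.24) and CDH16 (50.91), and 0 a list 2 peak. Of 11 metallothioneins, small metal-binding proteins, 3 had a list 1 peak (MT1G 73.95, MT3 67.49, MT4 51.17) and MT1M had a list 2 peak (66.84). Of 27 type I keratin genes, the acidic filament proteins of epithelia, 0 had a peak at an end in either list, and the 11 hair keratins are among them. The 16 chemokine genes of 17q, the 5 alpha-globin genes, the 5 genes of the growth hormone cluster and the 6 myosin heavy chain genes of 17p also had 0 in both lists, where the shares over all autosomal coding genes were 25.5% and 6.58%. The chemokine genes from CCL23 to CCL4L2 lie at 36 to 37 Mb of 17q, where neither list had any peak. Of 11 olfactory receptor genes of 17p, 2 had a list 1 peak, but OR3A2 and OR1R1 overlap and shared 1 peak of score 66.03.

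The markers of colon epithelium on these chromosomes, CDH1, KRT20, KRT19, CES2 and CES3, had 0 of 5 with a peak at an end in either list, beside 25.5% and 6.58% of all autosomal coding genes. A peak list of a chromatin factor gives no expression level, so this does not test the labelled cell type. With 5 to 28 genes a set, a count of 0 allows a wide range, up to 43.4% of genes for a set of 5 by the Wilson interval and up to 12.5% for the 27 keratins.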

How the data were processed

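ChIP-seq libraries of MTA1 (2) and input (2) were analysed as the authors' 2 peak lists, called per replicate number and not on pooled libraries, as the lists' names show. Per the submitters' processing notes, cutadapt, Bowtie2 and GRCh38 were used, without roles or versions; peak names have the form that MACS writes, and no caller settings are stated. The deposited score of each peak, with a lowest value of 50, served only for ranks, descriptions and filters inside 1 list. No values per library were analysed, so depth is unknown.

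Coding genes (18973 on autosomes) came from a RefSeq table of GRCh38.p14, whose coordinates were used because those notes name GRCh38. From it, 676 rows out of positional order within their chromosome, 153 of them coding, were left out. Arms were bounded by the gene-free interval at the centromere, and spans run between the outermost genes. Arm fits regressed log2 peaks per Mb on log2 genes per Mb, with deleted studentized residuals (scipy 1.17.1), two-sided, adjusted over 39 arms at 0.05. Bins of 5 Mb with at least 2.5 Mb of span were fitted with a Poisson model on log(genes + 1) (statsmodels 0.14.6). A called bin had at least 1.5 times the fitted number in both lists. The named genes were, per arm, up to 6 with a shared region at an end by the sum of ranks, the 3 best-scoring peaks of each list, and up to 4 members of each of 15 gene lists with the best scores; the 3 genes with the most peaks of each list and members named for peaks in the gene body were added after their values were seen, as were the comparisons of arm ends, strand and promoter windows. Members and gene lists were chosen with earlier results of these data known. The fits were tested on simulated data. Some members of the gene lists are not reported here.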

Additional observations from a re-analysis of the deposited data

Results flagged for a closer look

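List 2 had peaks in the gene-free intervals between the arms, which the main arm comparisons leave out, while list 1 had 0 there on both chromosomes. On chromosome 16, 10 list 2 peaks lay between 36102206 and 46400000, with a best score of 260.14 (rank 93 of list 2). On chromosome 17, 8 list 2 peaks lay between 22705637 and 26900000, with a best score of 630.02 (rank 21). They were picked out because they are peaks at positions that the main comparisons of arms and bins leave out. Only the alternative with the gene-free interval kept, given below, includes them. Repeats and mappability there were not analysed here.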

How the results depend on the processing

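No paired analysis was possible because the deposited lists carry no value per library, so no block for the replicate number could be fitted. Of 92 recomputed values, 69 kept their direction and side of the threshold or stayed within their interval. With 5 Mb bins as the unit and a quasi-Poisson model, changed together, 16q (log2 0.59) and 17q (0.63) passed the adjusted threshold. The value of 17p, 0.03 with arms as the unit, turned to -0.0086 for base pairs covered, -0.034 with genes of every type and -0.000405 with the gene-free interval kept. Leaving out either list gave 0.10 to 0.88 for 16q and 0.54 to 0.62 for 17q, and without the last 5 Mb of every arm, an alternative added after the data were seen, 0.27 and 0.49. Called bins numbered 3 with both lists (10 of 544 over all autosomes), 7 to 11 with a list left out (44 and 77 of 544), 6 with 2 Mb bins (38 of 1358), 0 with 10 Mb bins (1 of 271), 6 at a lower bound on the ratio (26 of 544) and 0 at a bound of 2 (3 of 544). Relative to all autosomes, base pairs covered gave list 1 ratios of 1.80 on 16p, 3.07 on 16q and 3.74 on 17q, against 1.66, 2.16 and 2.57 for peak counts, and a list 2 ratio of 2.21 on 17q against 1.92. With the better-scoring 50% of each list, shared regions moved from 1.77 to 2.65 times all autosomes on 16p (13 regions) and from 2.27 to 0.976 on 17p (3 regions). Under the same filter, genes with a list 1 peak at an end moved from 1.45 to 1.71 on 16q, and with a list 2 peak from 0.778 to 0.407 on 17p (5 genes). The cause was not tested for any of these. The limits are 1 library pair per list, unknown depth and the absence of copy number, GC content of bins and mappability from the comparison.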
